A study of Homo sapiens with 30 samples.

Results

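The transcripts described here encode NRF2 and 7 proteins that hold it back, pair with it or feed back on it. NRF2 is the product of NFE2L2, and the other genes are KEAP1, MAFG, MAFF, MAFK, BACH1, SQSTM1 and OSGIN1. They were taken by gene symbol, through their Ensembl identifiers, from a deposited table of 60675 gene rows. All 8 had a row, and all 8 passed the filter on low counts in every fit, so no member was left out.

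NRF2 is a transcription factor of the cap'n'collar family that switches on genes of glutathione synthesis, NADPH supply and quinone and carbonyl detoxification. In resting cells KEAP1 holds NRF2 for ubiquitination by a CUL3 ligase and degradation, and electrophiles or oxidants that modify KEAP1 let NRF2 accumulate. NRF2 binds antioxidant response elements only as a dimer with a small MAF protein (MAFF, MAFG or MAFK), and BACH1 competes for the same partners and elements as a repressor. SQSTM1 (p62) is a selective autophagy receptor that sequesters KEAP1, and OSGIN1 is an oxidative stress induced growth inhibitor and a known NRF2 target. NRF2 activity is set largely at the level of the protein, which RNA sequencing does not measure.

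The libraries came from HT29 cells, an established line from a human colorectal adenocarcinoma, exposed for 24 h to vehicle or to a 70% ethanol extract of 1 of 4 traditional Korean herbal formulas. Vehicle had 3 libraries, Soshiho-tang and Yijin-tang had 3 at each of 500, 100 and 20 µg/mL, Okbyeongpung-san had 2 at each dose and Soyo-san had 1. All 30 libraries therefore share the cell line and the exposure time, and the 13 groups differ by extract and dose. In bulk RNA of this kind, fewer cells of a type and less RNA per cell cannot be told apart. No label says that the replicates of a group are independent cultures, and p-values then measure the spread between these libraries, which may be technical. The sample labels state 0.1% DMSO for the vehicle where the design text states 2%. The design text also says that extracts whose IC20 lay below 500 µg/mL were given at the IC20 and diluted from there, while the labels give the same 3 doses for every extract. The doses are those of the labels and remain uncertain, and libraries with the wortmannin control (10 µM) are not analysed here. The names of the vehicle libraries set them apart from every extract library, so an effect of that set and one of vehicle cannot be told apart, and 20 µg/mL of the same formula served as a further reference. Titles assign Soyo-san and replicate 3 of Okbyeongpung-san to batch D and the rest to batch E, without saying what a batch is.

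Depth ranged from 18.5 M to 36.2 M counts per library (M standing for 1000000), with the vehicle libraries between 25.4 M and 36.2 M. All 9 epithelial markers had a median of at least 1 CPM (counts per 1000000 of the scaled library), although CDH17 and CDX2 were low, with medians of 2.92 and 3.92 CPM. Marker lists of fibroblasts, leukocytes and endothelium summed to at most 3.55, 3.85 and 2.09 CPM, with COL1A2, DCN, PTPRC, CD3E and CDH5 at a median of 0. Mitochondrial genes took 11.48% to 13.93% of the counts in vehicle, 9.06% to 12.87% in the extract libraries and 9.06% to 10.78% with Soshiho-tang at 500 µg/mL. Replicate pairs differed beyond sampling noise in each of the 10 groups with replicates, and the vehicle pairs differed most.

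In vehicle, SQSTM1 was the most abundant regulator per length, with 46.1 ± 1.74 CPM per kilobase of exon (SD, n = 3). NFE2L2 followed with 20.6 ± 1.67, then MAFG with 15.7 ± 1.47, KEAP1 with 14.8 ± 0.618 and MAFK with 12.3 ± 0.498 CPM per kilobase. BACH1 (4.23 ± 0.462), OSGIN1 (4.15 ± 0.487) and MAFF (2.56 ± 0.189) were the least abundant on that scale. Thus on that scale NFE2L2 mRNA was a little more abundant than that of its inhibitor KEAP1, and the repressor BACH1 lay well below NFE2L2. MAFG and MAFK made up most of the small MAF mRNA. The length is that of all annotated exons of a gene joined, not of the transcripts expressed here. The differences between genes depend on that choice. All values that follow are CPM, not per length, and are compared only within a gene.

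The genes lie on 8 chromosomes. On GRCh38 (GENCODE release 29) they are NFE2L2 at chr2:177227595-177392697 (minus strand), KEAP1 at chr19:10486120-10503741 (minus), MAFG at chr17:81918270-81927714 (minus) and MAFF at chr22:38200767-38216511 (plus). MAFK is at chr7:1530714-1543043, BACH1 at chr21:29194071-29630751, SQSTM1 at chr5:179806398-179838078 and OSGIN1 at chr16:83948282-83966332, each on the plus strand. Some share ground with expressed neighbours. MAFG overlaps SIRT7 on the same strand (42.8 CPM over all libraries), and SQSTM1 overlaps MGAT4B (287 CPM) and MRNIP (28.9 CPM) on the other strand. AGPS (98.1 CPM) overlaps NFE2L2, TMEM184A (62.2 CPM) MAFK and PLA2G6 (6.4 CPM) MAFF, all on the other strand. The library kit keeps strand, but whether the counting used it is not given in the sources used here, so reads in shared stretches may be divided imperfectly.

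Start-site sequences are shown because NRF2 dimers are known to read 1 short element. Its part in the expression changes below was not tested. The RefSeq promoter table (GRCh38.p14) held 14 windows for 7 of the genes, each running from 250 bases before to 50 bases after an annotated start, and MAFK has no entry. The element core was searched on both strands as TGACNNNGC or TGAGNNNGC. At least 1 window of NFE2L2, KEAP1, MAFF, SQSTM1 and OSGIN1 held it, 5 of the 14 windows, beside 29.1% of 35116 windows in the table. That is near the share over all windows and is no result about these genes. A match is a description of letters and not evidence of binding. The stretches below lie before the annotated start of their own window and outside annotated untranslated exons. They are written 5′ to 3′ on the gene's strand and carry the matches in capitals.
NFE2L2, chr2:177264132-177264302 (minus): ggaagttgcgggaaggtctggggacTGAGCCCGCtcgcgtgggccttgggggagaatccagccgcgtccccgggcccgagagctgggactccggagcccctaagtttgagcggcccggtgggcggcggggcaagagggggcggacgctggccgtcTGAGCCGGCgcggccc
KEAP1, chr19:10502941-10502999 (minus): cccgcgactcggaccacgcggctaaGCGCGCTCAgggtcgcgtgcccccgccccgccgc
MAFF, chr22:38201847-38201881 (plus): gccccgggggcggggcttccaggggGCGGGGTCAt
SQSTM1, chr5:179820690-179820748 (plus): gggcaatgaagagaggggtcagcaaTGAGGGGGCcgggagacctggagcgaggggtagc
OSGIN1, chr16:83953116-83953174 (plus): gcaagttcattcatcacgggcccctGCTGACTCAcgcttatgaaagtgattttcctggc
Distances are to the start of the window that holds the match. NFE2L2 carries 2 copies on its own strand, the first bases of which lie 146 and 16 bases before that start. The SQSTM1 match begins 190 bases before its start on the gene's strand. NFE2L2, KEAP1 and SQSTM1 also have annotated starts farther upstream, and the windows there held no match. The capitals of KEAP1, MAFF and OSGIN1 are the element read on the other strand. The KEAP1 window holds 2 further matches that are not shown. Windows of MAFG and BACH1 held neither core. The E-box CACGTG, found in 7.26% of all windows, was in windows of MAFG and MAFF. The letters TGCGTG, 1 form of the dioxin response element, were in 9.54% of all windows and in no member's window. Other forms were not searched, and the shorter letters GCGTG stand in the NFE2L2 and KEAP1 stretches above.

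**Figure D1:**
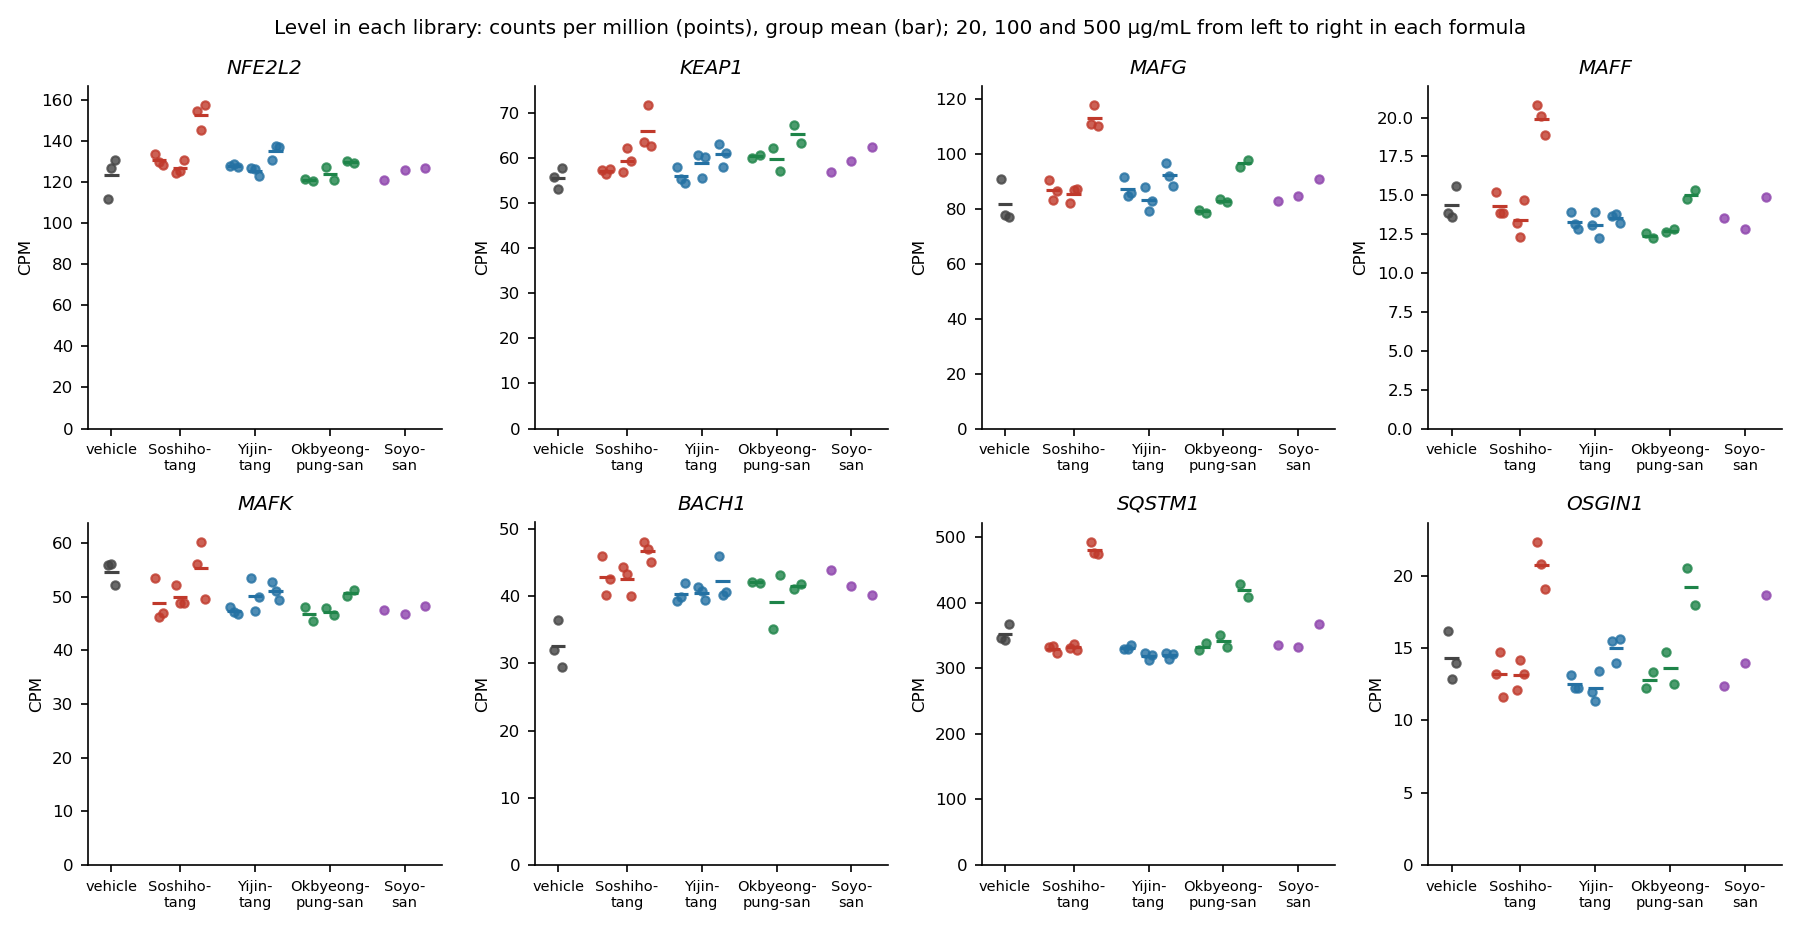
Each panel shows 1 gene, with CPM on the vertical axis from 0, libraries as points, group means as bars, and 20, 100 and 500 µg/mL from left to right within each formula. Soshiho-tang at 500 µg/mL stands highest for 7 of the 8 genes without overlap with vehicle, and BACH1 lies above every vehicle library in 11 of the 12 extract groups.

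Soshiho-tang at 500 µg/mL raised 7 of the 8 transcripts over vehicle and lowered none (edgeR quasi-likelihood test, adjusted over all genes). Of all 15882 genes tested 39.2% changed, and 21% of those tested were higher, against which 7 of 8 higher stands well above the background. The members were chosen with earlier results of these data known, so that excess describes them and is no independent test. The 7 were NFE2L2, KEAP1, MAFG, MAFF, BACH1, SQSTM1 and OSGIN1, by 1.2-fold to 1.45-fold, and MAFK was the exception. The median log2 fold change was 0.464 for the 8 members against -0.01 for all genes. Against 20 µg/mL of the same formula 7 members were again higher and none lower, where 26.8% of all genes changed and 13.3% were higher. There the exception was BACH1, and MAFK passed. Neither lower dose shared the pattern. At 100 and at 20 µg/mL BACH1 was the only member to differ from vehicle, and it was higher. Of all genes 18.2% and 16.9% changed, 11.1% and 10.6% being higher and 7.05% and 6.34% lower. With 1 of 8 members higher, the count is near those shares. Without vehicle replicate 1 MAFG passed too at those doses (edgeR adjusted p = 0.039 and 0.016), and SQSTM1 passed as lower without vehicle replicate 1 (0.027 and 0.015) or 2 (0.027 and 0.017) and in DESeq2 (0.045 and 0.017). Between 100 and 20 µg/mL no member and no gene passed (0.0% called). At an unadjusted p below 0.05 that comparison held 474 genes, none of them a member, and DESeq2 called no member.

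Yijin-tang at 500 µg/mL gave a smaller and mixed response. Over vehicle 4 members were higher (NFE2L2, KEAP1, MAFG and BACH1) and SQSTM1 was lower, where 21% of all genes changed, 12.7% higher and 8.39% lower. None of the 8 differed from 20 µg/mL of the same formula by edgeR or DESeq2. There 1.86% of all genes changed, 0.724% higher and 1.13% lower. An unadjusted p below 0.05 was held by 2 members, beside 1962 of all 15882 genes. At 100 µg/mL BACH1 was higher and SQSTM1 lower than vehicle (18.4% of genes called, 11.1% higher and 7.37% lower). At 20 µg/mL BACH1 was higher and MAFK lower (17.0% called, 10.3% higher and 6.66% lower). With 1 of 8 members in each direction, these counts are near those shares. Other members passed at those doses with 1 library left out. At 20 µg/mL these were MAFG without vehicle replicate 1 (edgeR adjusted p = 0.011), SQSTM1 as lower without vehicle replicate 1 or 2 (both 0.024) and OSGIN1 as lower without vehicle replicate 2 (0.033). At 100 µg/mL OSGIN1 passed as lower without vehicle replicate 2 (0.018) or Yijin-tang replicate 3 (0.042). No member and no gene differed between 100 and 20 µg/mL by edgeR (0.0% called). No member there had an unadjusted p below 0.05, 509 genes did, and DESeq2 called no member.

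Okbyeongpung-san, with 2 libraries per dose, raised SQSTM1 and OSGIN1 over vehicle at 500 µg/mL, 2 of 8 members where 4.38% of all genes changed and 2.19% were higher. That background is itself unstable: 690 genes were called, and from 55 to 1358 when any 1 of the 5 libraries was left out. Both calls are fragile. With batch as a term (chosen after seeing the data) SQSTM1 stood at an edgeR adjusted p of 0.11 and OSGIN1 at 0.094, and leaving out either Okbyeongpung-san library at that dose ended both. No member passed in edgeR against 20 µg/mL, where 0.558% of all genes did (0.311% lower). There 4 members had an unadjusted p below 0.05, beside 1195 of all 15762 genes, and DESeq2 called 2 members. At 100 and 20 µg/mL no member differed from vehicle by edgeR (0.108% and 0.273% of genes called). Those shares are 17 and 43 genes, which ran from 3 to 318 and from 0 to 913 with 1 library left out and were 157 and 545 in DESeq2. Calls were also gained by leaving out a vehicle library. At 500 µg/mL KEAP1 (edgeR adjusted p = 0.038) and MAFG (0.0035) passed without vehicle replicate 1, and BACH1 passed without vehicle replicate 2 at 500 (0.02) and 20 µg/mL (0.026). At 100 and 20 µg/mL 2 and 3 members had an unadjusted p below 0.05 over vehicle, beside 2401 and 3060 of all 15762 genes. DESeq2 called no member at 100 and 1 at 20 µg/mL. Between 100 and 20 µg/mL edgeR called no member and no gene (0.0% called). No member and 369 genes had an unadjusted p below 0.05 there, and DESeq2 called no member. The comparisons with vehicle share the same 3 vehicle libraries and are not independent of each other.

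**Figure D2:**
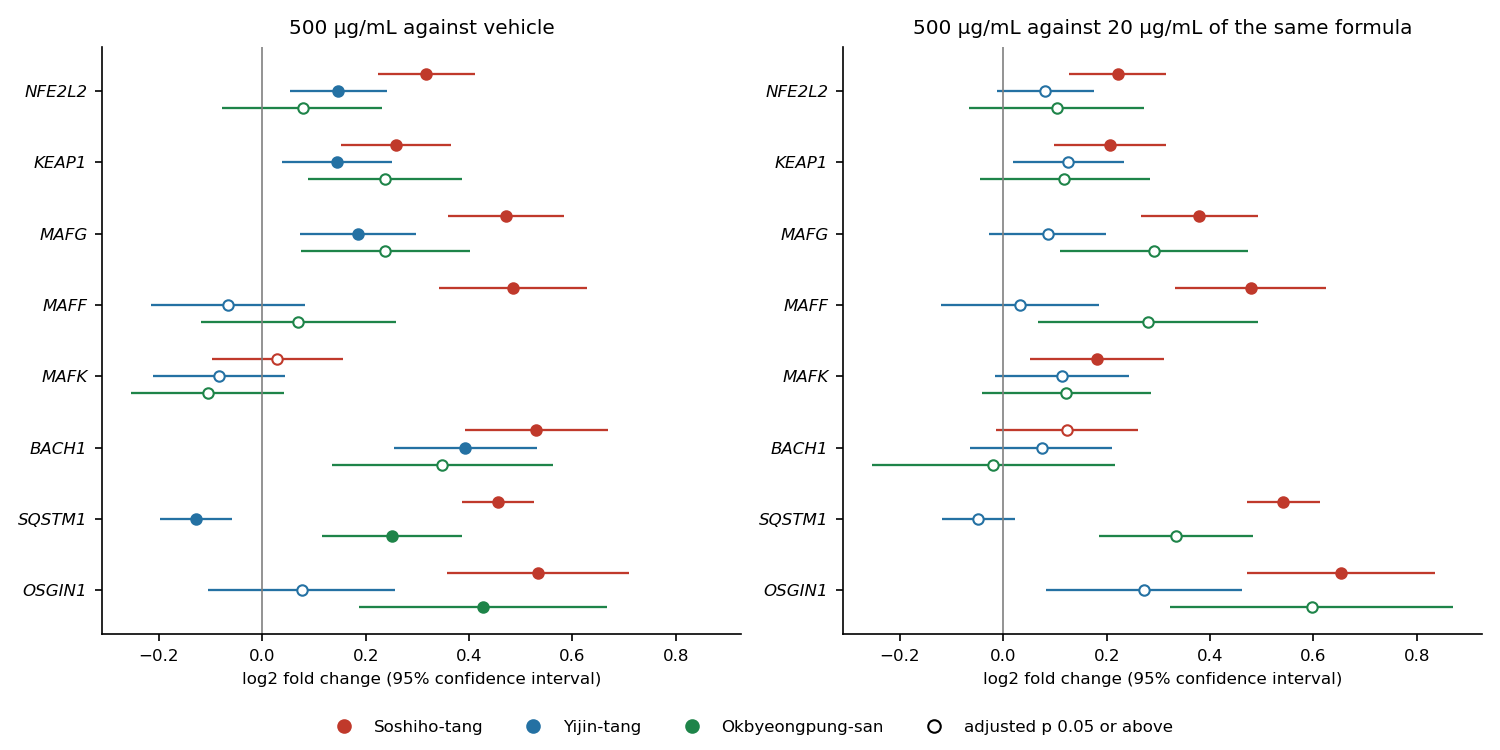
Log2 fold change of 500 µg/mL (horizontal axis, with 95% confidence intervals) for each gene against vehicle (left) or 20 µg/mL (right), in the colour of the formula, with filled points for an adjusted p below 0.05. Soshiho-tang values lie to the right of Yijin-tang values for every gene, and BACH1 leaves 0 only against vehicle.

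NFE2L2, the gene of NRF2 itself, moved modestly. Vehicle libraries held 112.1, 127.2 and 130.9 CPM, and those with Soshiho-tang at 500 µg/mL 154.7, 145.7 and 157.5 CPM. With Soshiho-tang at 20 µg/mL the values were 133.9, 130.0 and 128.2 CPM. The 3 top-dose libraries were above all 27 others in the series, the next highest being 137.5 CPM with Yijin-tang at 500 µg/mL. The log2 fold change was 0.32 ± 0.046 (SE) over vehicle (edgeR adjusted p = 3e-06) and 0.22 ± 0.046 over 20 µg/mL (edgeR adjusted p = 0.00057). Yijin-tang at 500 µg/mL, with 130.8, 137.5 and 137.3 CPM, overlapped vehicle at its lower end and stood 0.15 ± 0.046 higher (edgeR adjusted p = 0.021). That call rests on vehicle replicate 1, the lowest library in the series, without which the log2 fold change was 0.063 (edgeR adjusted p = 0.25). It also ended without Yijin-tang replicate 2 (0.12) or replicate 3 (0.13, both edgeR adjusted p). Okbyeongpung-san at 500 µg/mL, with 130.2 and 129.3 CPM, lay inside the vehicle range. The neighbour AGPS had 86.01 ± 6.75 CPM in vehicle, 95.69 ± 1.84 with Soshiho-tang at 20 µg/mL and 103.4 ± 3.92 at 500 µg/mL (SD, n = 3), and its part in the NFE2L2 values was not tested.

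KEAP1, the adaptor that delivers NRF2 to its ligase, rose with NFE2L2 and not against it. Its CPM were 55.79, 53.09 and 57.71 in vehicle, 57.32, 56.45 and 57.57 with Soshiho-tang at 20 µg/mL, and 63.43, 71.59 and 62.61 at 500 µg/mL. The top dose was apart from both references. The change was 0.26 ± 0.052 on the log2 scale over vehicle (edgeR adjusted p = 0.00023) and 0.21 ± 0.053 over 20 µg/mL (edgeR adjusted p = 0.0039), and the second was not past the threshold without replicate 2 of the top dose (0.14, edgeR adjusted p = 0.062). Okbyeongpung-san at 500 µg/mL reached 67.23 and 63.22 CPM, also apart from vehicle, with a log2 fold change of 0.24 ± 0.069 that did not pass (edgeR adjusted p = 0.07). Yijin-tang at 500 µg/mL, at 63.07, 58.05 and 61.08 CPM, was 0.145 ± 0.052 higher than vehicle (edgeR adjusted p = 0.047). That call was lost in all 11 alternative settings, where the adjusted p lay between 0.052 and 0.28.

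The small MAF partners split. MAFG had 90.76, 77.75 and 77.14 CPM in vehicle, 90.61, 83.16 and 86.59 with Soshiho-tang at 20 µg/mL, and 110.9, 117.6 and 110.2 at 500 µg/mL. MAFF had 13.88, 13.62 and 15.58 CPM in vehicle, 15.2, 13.85 and 13.86 at 20 µg/mL, and 20.78, 20.08 and 18.9 at 500 µg/mL. For both genes the 3 top-dose libraries exceeded every other library of the series. MAFG rose by 0.47 ± 0.055 over vehicle (edgeR adjusted p = 9.3e-08) and 0.38 ± 0.055 over 20 µg/mL (edgeR adjusted p = 5.7e-06), all on the log2 scale. MAFF rose by 0.485 ± 0.070 (edgeR adjusted p = 2.9e-06) and 0.48 ± 0.071 (edgeR adjusted p = 8.5e-06). MAFK behaved otherwise, with 55.84, 56.02 and 52.09 CPM in vehicle and 56.09, 60.21 and 49.48 with Soshiho-tang at 500 µg/mL, ranges that overlap. Its log2 difference from vehicle was 0.029 ± 0.062 (95% confidence interval -0.098 to 0.156, edgeR adjusted p = 0.75).

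MAFK differed from the low dose by 0.18 ± 0.063 (edgeR adjusted p = 0.034), although the libraries at 20 µg/mL, at 53.4, 46.25 and 46.89 CPM, overlap those at 500 µg/mL. Leaving out top-dose replicate 1 or 2, or low-dose replicate 2 or 3, ended that call, with edgeR adjusted p of 0.093, 0.24, 0.16 and 0.12. Across the series the vehicle mean of MAFK ranked just below the top group and above 11 extract groups. The 18 libraries at 100 and 20 µg/mL of all 4 formulas spanned 45.4 to 53.48 CPM with a median of 47.69. Only Yijin-tang at 20 µg/mL passed, at 48.13, 47.09 and 46.8 CPM and a log2 fold change of -0.20 ± 0.062 (edgeR adjusted p = 0.028). Without Yijin-tang replicate 2 or 3 at that dose its edgeR adjusted p was 0.064 or 0.067. Soshiho-tang at 20 µg/mL, at -0.15 ± 0.062, did not pass (edgeR adjusted p = 0.096), but did without its replicate 1 (-0.23, edgeR adjusted p = 0.021) and without the low-count filter (-0.18, edgeR adjusted p = 0.017). The neighbour TMEM184A, on the other strand, had 66.38 ± 5.85 CPM in vehicle and 61.77 ± 0.832 with Soshiho-tang at 500 µg/mL (SD, n = 3).

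Under the other extracts the calls for MAFG and MAFF were few. Okbyeongpung-san at 500 µg/mL gave MAFG values of 95.05 and 97.9 CPM, above the 3 vehicle libraries and above 79.48 and 78.52 CPM at 20 µg/mL. The log2 differences of 0.24 ± 0.076 and 0.29 ± 0.084 did not pass (edgeR adjusted p = 0.092 and 0.25). With replicate number as a term in the model each of them passed. Both passed in the 27-library fit added after seeing the data (edgeR adjusted p = 0.0059 and 0.011), the former also without vehicle replicate 1 (0.0035) and the latter also on the compared groups alone (9.2e-05). Yijin-tang at 500 µg/mL, at 96.8, 92.04 and 88.28 CPM of MAFG, overlapped vehicle and was 0.185 ± 0.055 higher (edgeR adjusted p = 0.016), a call that ended without vehicle replicate 2 (0.11) or 3 (0.16) and without Yijin-tang replicate 1 (0.16) or 2 (0.067). MAFF with Yijin-tang at 500 µg/mL, at 13.68, 13.79 and 13.24 CPM, lay at and just below the lower end of the vehicle range. The MAFG neighbour SIRT7, which shares its strand, had 40.24 ± 2.22 CPM in vehicle, 46.96 ± 3.32 with Soshiho-tang at 500 µg/mL and 42.33 ± 2.07 at 20 µg/mL (SD, n = 3), and its part in the MAFG values was not tested. PLA2G6, beside MAFF, went the other way, from 6.883 ± 0.371 CPM in vehicle to 5.238 ± 0.444 at the top dose.

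BACH1, the repressor that competes with NRF2, was the member that separated vehicle from extract whatever the dose. Vehicle libraries held 31.92, 36.5 and 29.49 CPM. Soshiho-tang gave 48.06, 47.03 and 45.11 CPM at 500 µg/mL, and 45.96, 40.23 and 42.53 CPM at 20 µg/mL. Of the 12 extract groups only Okbyeongpung-san at 100 µg/mL, with 35.14 and 43.18 CPM, reached into the vehicle range. The log2 fold change over vehicle was 0.53 ± 0.067 at 500 µg/mL (edgeR adjusted p = 4.3e-07), 0.40 ± 0.068 at 100 µg/mL (edgeR adjusted p = 0.00017) and 0.41 ± 0.068 at 20 µg/mL (edgeR adjusted p = 0.00013). From 20 to 500 µg/mL it changed by 0.12 ± 0.067 (95% confidence interval -0.014 to 0.26, edgeR adjusted p = 0.19). Each of these calls over vehicle held in all 11 alternative settings. The highest adjusted p there (edgeR or DESeq2) was 0.00064, 0.03 and 0.035 at 500, 100 and 20 µg/mL.

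With Yijin-tang BACH1 was 0.39 ± 0.068, 0.32 ± 0.068 and 0.32 ± 0.068 higher than vehicle at 500, 100 and 20 µg/mL (edgeR adjusted p = 0.00014, 0.0013 and 0.0016). The values were 46.03, 40.17 and 40.63 CPM at 500 µg/mL and 39.31, 39.89 and 41.92 CPM at 20 µg/mL, which overlap each other and not vehicle. Fitted on the compared groups alone, the values at 100 and 20 µg/mL were not past the threshold (edgeR adjusted p = 0.054 and 0.058). Okbyeongpung-san at 500 µg/mL had 41.02 and 41.86 CPM and a log2 fold change of 0.35 ± 0.099 (edgeR adjusted p = 0.064). At 20 µg/mL, with 42.13 and 42.01 CPM, it was 0.37 ± 0.099 (edgeR adjusted p = 0.089). The BACH1 differences that passed were thus those with vehicle and none between doses, and the vehicle libraries also differ from the extract libraries by their library set. Their share of mitochondrial counts, 11.48% to 13.93%, overlapped that of the extract libraries, 9.06% to 12.87%. With mitochondrial genes removed before scaling the Soshiho-tang value at 500 µg/mL was 0.52 (edgeR adjusted p = 4.8e-07) and that at 20 µg/mL 0.39 (edgeR adjusted p = 0.00018). The part of the library set was not tested and cannot be told apart from that of the extracts.

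SQSTM1, which encodes the KEAP1-binding autophagy receptor p62, was the member with the clearest separation by dose and by formula. Vehicle libraries held 346.4, 343.5 and 367.9 CPM. Soshiho-tang gave 492.6, 475.5 and 473.5 CPM at 500 µg/mL, 331.2, 337.0 and 327.6 CPM at 100 µg/mL, and 332.0, 333.9 and 322.5 CPM at 20 µg/mL. The top dose exceeded every other library of the series, while both lower doses lay below all 3 vehicle libraries. The log2 fold change at 500 µg/mL was 0.46 ± 0.034 over vehicle (edgeR adjusted p = 3.4e-11) and 0.54 ± 0.034 over 20 µg/mL (edgeR adjusted p = 1.5e-12). Okbyeongpung-san at 500 µg/mL, at 427.7 and 409.3 CPM, was also apart from all 3 vehicle libraries and from its own 20 µg/mL libraries at 327.2 and 338.4 CPM. Over vehicle it was 0.25 ± 0.063 higher (edgeR adjusted p = 0.042), and the edgeR adjusted p was 0.07 without vehicle replicate 3, 0.32 without Okbyeongpung-san replicate 2 and 0.22 without replicate 3. Over 20 µg/mL the log2 difference of 0.33 ± 0.069 was just short of the threshold (edgeR adjusted p = 0.053) and passed in DESeq2 (adjusted p = 0.0016).

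With Yijin-tang SQSTM1 stood below vehicle, as it did in lower-dose groups of other formulas. At 500 µg/mL the Yijin-tang libraries held 323.8, 313.9 and 321.0 CPM. At 100 µg/mL they held 322.9, 312.0 and 320.4 CPM, all below the lowest vehicle library. The log2 fold changes were -0.13 ± 0.034 (edgeR adjusted p = 0.0078) and -0.135 ± 0.034 (edgeR adjusted p = 0.006). Fitted on the compared groups alone, the calls were lost (edgeR adjusted p = 0.13 and 0.12). At 500 against 20 µg/mL of Yijin-tang, the difference was -0.048 ± 0.034 (95% confidence interval -0.118 to 0.022, edgeR adjusted p = 0.63). The 18 libraries at 100 and 20 µg/mL of all 4 formulas spanned 312.0 to 350.0 CPM with a median of 331.5. Vehicle spanned 343.5 to 367.9 CPM. The part of the vehicle library set in these differences was not tested. MGAT4B, which overlaps SQSTM1 on the other strand, had 280.1 ± 10.3 CPM in vehicle, 305.5 ± 12.7 with Soshiho-tang at 500 µg/mL and 284.6 ± 8.92 at 20 µg/mL (SD, n = 3), and its part in the SQSTM1 values was not tested. MRNIP had 29.02 ± 3.14, 31.08 ± 2.46 and 30.52 ± 1.27 CPM in the same groups.

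OSGIN1, the growth inhibitor that NRF2 is known to induce, gave the steepest difference between doses. Its CPM were 16.18, 12.87 and 13.98 in vehicle, 13.21, 14.75 and 11.62 with Soshiho-tang at 20 µg/mL, and 22.34, 20.8 and 19.1 at 500 µg/mL. The top dose was apart from both references, by 0.53 ± 0.086 on the log2 scale over vehicle (edgeR adjusted p = 1.4e-05) and 0.65 ± 0.089 over 20 µg/mL (edgeR adjusted p = 2.2e-06). Okbyeongpung-san at 500 µg/mL held 20.53 and 17.96 CPM, apart from vehicle and from 12.27 and 13.31 CPM at 20 µg/mL. The log2 differences were 0.43 ± 0.111 over vehicle (edgeR adjusted p = 0.048) and 0.60 ± 0.127 over 20 µg/mL (edgeR adjusted p = 0.06). Without vehicle replicate 2 or 3 the first had an edgeR adjusted p of 0.069 or 0.14, and without Okbyeongpung-san replicate 2 or 3 of 0.37 or 0.17. Yijin-tang at 500 µg/mL, at 15.48, 13.94 and 15.61 CPM, overlapped vehicle but not its own 20 µg/mL libraries at 13.12, 12.24 and 12.21 CPM. That dose difference of 0.27 ± 0.092 did not pass (edgeR adjusted p = 0.15), but did without the low-count filter (0.049) and on the compared groups alone (0.022).

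**Figure D3:**
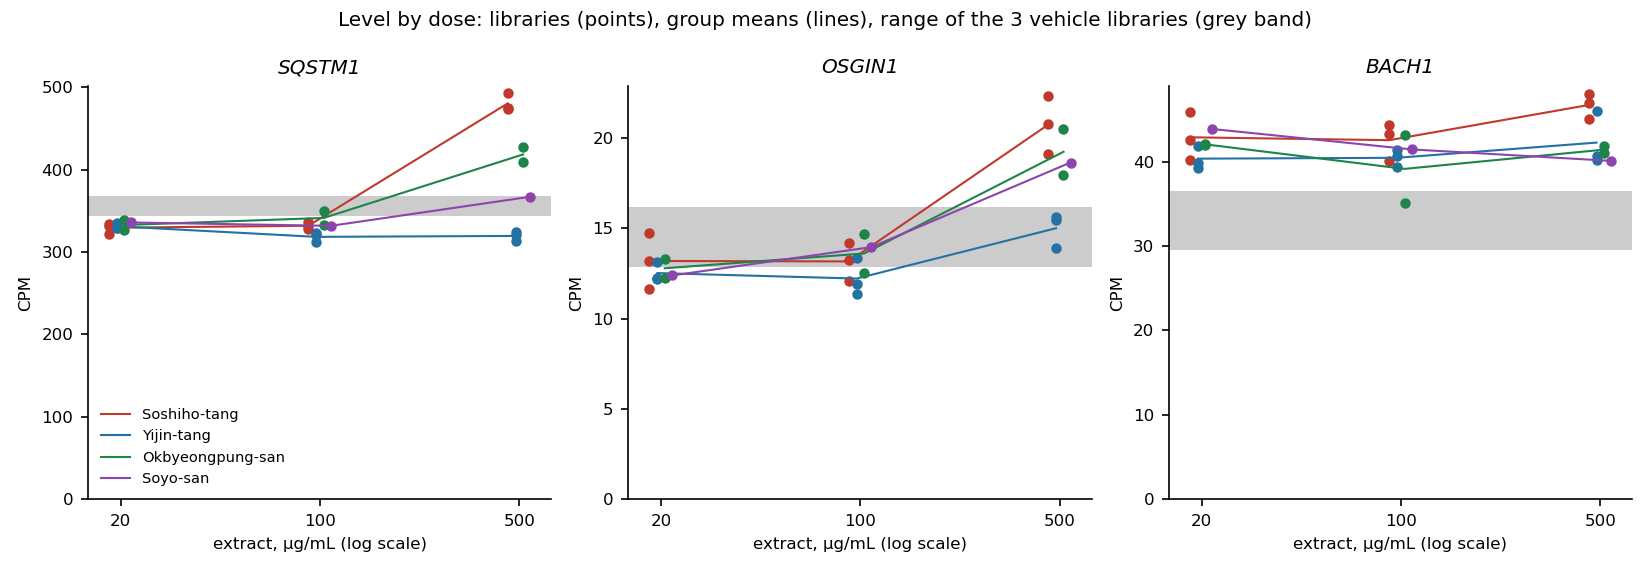
CPM of SQSTM1, OSGIN1 and BACH1 (vertical axes from 0) against the label dose on a log axis, with libraries as points nudged sideways by formula, group means joined by lines and the vehicle range as a grey band. SQSTM1 leaves the band upward only at 500 µg/mL of Soshiho-tang and Okbyeongpung-san, OSGIN1 also with the single Soyo-san library, and BACH1 lies above the band at 20 µg/mL already.

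The extracts were set against each other at the same label dose. At 500 µg/mL Soshiho-tang exceeded Yijin-tang for 5 of the 8 members and fell below it for none, where 12.9% of all genes differed and 6.54% were higher. SQSTM1 differed by 0.58 ± 0.034 (edgeR adjusted p = 1e-12), MAFF by 0.55 ± 0.072 (edgeR adjusted p = 2.3e-06), OSGIN1 by 0.46 ± 0.087 (edgeR adjusted p = 0.00045), MAFG by 0.29 ± 0.055 (edgeR adjusted p = 0.00047) and NFE2L2 by 0.17 ± 0.046 (edgeR adjusted p = 0.012). The NFE2L2 difference was lost without Yijin-tang replicate 1 (edgeR adjusted p = 0.072) or Soshiho-tang replicate 3 (0.063). KEAP1 (0.114, 95% confidence interval 0.007 to 0.221), MAFK (0.113, -0.016 to 0.242) and BACH1 (0.138, 0.001 to 0.275) did not pass. The largest of these 8 differences were those of SQSTM1 and MAFF.

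The difference between formulas was then tested as the change from 20 to 500 µg/mL with Soshiho-tang minus that with Yijin-tang. Vehicle levels do not enter this difference, but the vehicle libraries stay in the fit that estimates the spread. The difference was above 0 for 3 members and below 0 for none, where 4.58% of all genes passed, 2.15% higher and 2.42% lower. SQSTM1 gave 0.59 ± 0.048 on the log2 scale (edgeR adjusted p = 3.9e-09), MAFF 0.45 ± 0.103 (edgeR adjusted p = 0.008) and MAFG 0.29 ± 0.078 (edgeR adjusted p = 0.025). OSGIN1, at 0.38 ± 0.128, did not pass (edgeR adjusted p = 0.095), but did without Soshiho-tang replicate 2 at 20 µg/mL (0.475, edgeR adjusted p = 0.043). BACH1 had the smallest value, 0.049 (95% confidence interval -0.145 to 0.243). The MAFG call was lost on leaving out Yijin-tang replicate 1 at 20 µg/mL, Yijin-tang replicate 2 or 3 at 500 µg/mL, or Soshiho-tang replicate 2 at either dose, with edgeR adjusted p between 0.054 and 0.086.

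Okbyeongpung-san was compared with these formulas in a fit of 27 libraries that was added after seeing the data. At 500 µg/mL it exceeded Yijin-tang in SQSTM1 alone among the members (0.39 ± 0.040, edgeR adjusted p = 3e-07), where 0.337% of all genes differed and 0.202% were higher. For OSGIN1 the difference of 0.36 ± 0.0996 did not pass (edgeR adjusted p = 0.16). Okbyeongpung-san was below Soshiho-tang for NFE2L2 (-0.23), MAFG (-0.23), MAFF (-0.41) and SQSTM1 (-0.20), 4 of 8 members where 6.94% of all genes differed and 3.87% were lower, with edgeR adjusted p of 0.0027, 0.014, 0.00056 and 0.0013. The MAFG difference was not past the threshold without Okbyeongpung-san replicate 2 (0.18) or 3 (0.068) or Soshiho-tang replicate 2 (0.069), nor the SQSTM1 difference without Okbyeongpung-san replicate 3 (edgeR adjusted p = 0.07). KEAP1 was close in both extracts, with a difference of -0.014 (95% confidence interval -0.134 to 0.106).

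As a change between 20 and 500 µg/mL, SQSTM1 rose more with Okbyeongpung-san than with Yijin-tang by 0.38 ± 0.057 (edgeR adjusted p = 0.0012), and it was the only member of 8 in a comparison that called 0.0552% of all genes. It rose more with Soshiho-tang than with Okbyeongpung-san by 0.21 ± 0.057 (edgeR adjusted p = 0.044), again alone, where 1.84% of all genes were called. The latter was lost on leaving out any of the 10 libraries involved, with edgeR adjusted p between 0.056 and 0.26. The order of the dose effects on SQSTM1 is therefore shown for Yijin-tang against each of the others and is uncertain between Soshiho-tang and Okbyeongpung-san.

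Soyo-san had 1 library per dose, all in batch D, so its values carry no test. OSGIN1 was 18.65, 13.96 and 12.39 CPM at 500, 100 and 20 µg/mL, and the first lay above every vehicle library. On the log2 scale it was 0.384 above the vehicle mean and 0.587 above the low dose. BACH1 was above all vehicle libraries at each dose, at 40.11, 41.47 and 43.89 CPM, with the lowest value at the highest dose. SQSTM1, at 367.1, 331.8 and 335.9 CPM, reached the top of the vehicle range only at 500 µg/mL. MAFK stayed below vehicle at 48.23, 46.68 and 47.57 CPM. KEAP1 (62.29 CPM) and MAFG (90.88 CPM) at 500 µg/mL were just above the vehicle libraries, and NFE2L2 (127.1 CPM) and MAFF (14.91 CPM) within their range.

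Set in order over the 13 groups, Soshiho-tang at 500 µg/mL had the highest mean of every member. The gap to the group ranked next exceeded the library ranges for NFE2L2, MAFG, MAFF, BACH1 and SQSTM1, and not for KEAP1, MAFK and OSGIN1. For KEAP1, SQSTM1, OSGIN1, MAFG and MAFF the group ranked next was Okbyeongpung-san at 500 µg/mL. It was Yijin-tang at 500 µg/mL for NFE2L2, vehicle for MAFK and the single Soyo-san library at 20 µg/mL for BACH1. Below the top most neighbours overlapped, from 8 of 12 neighbouring pairs for MAFF to 11 of 12 for KEAP1, MAFG, MAFK and OSGIN1. Vehicle ranked last for KEAP1 and BACH1 and in the upper part of the order for MAFF, MAFK, SQSTM1 and OSGIN1. From lowest to highest library the range was widest for OSGIN1 (1.97-fold) and narrowest for MAFK (1.33-fold).

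The members fell into loose companies over the 13 group means. The Pearson correlation of log2 CPM was 0.937 for NFE2L2 and MAFG, 0.902 for MAFG and MAFF, 0.899 for MAFF and SQSTM1 and 0.875 for SQSTM1 and OSGIN1. It was 0.189 for BACH1 and OSGIN1 and -0.171 for MAFK and BACH1. These values describe 13 groups that share a cell line and library scaling, and the top dose of Soshiho-tang weighs heavily in each. Among 10466 other genes of at least 5 CPM, the closest to OSGIN1 were AKR1B10 (0.982), an aldo-keto reductase and NRF2 target, OSER1 and PTGR1 (both 0.979). SQSTM1 was closest to KRT20 (0.955), TINAGL1 (0.95) and PHLDA1 (0.947), and MAFF to ST3GAL1 (0.976), SLCO4A1 (0.97) and PHLDA1 (0.965). NFE2L2 was closest to CDCP1 (0.96), SOCS5 (0.958) and KIAA0040 (0.954), and MAFG to GPAT3 (0.966), KIAA0040 and MOB3C (both 0.964). KEAP1 was closest to DDB1 (0.966), TAF13 (0.953) and GLA (0.946), and MAFK, the loosest, to ESAM (0.924), ITGB4 and HMOX2 (both 0.923). BACH1 went with AP4E1 (0.978), ELK4 (0.962) and MYSM1 (0.96).

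Most of the genes that NRF2 switches on rose with Soshiho-tang at 500 µg/mL. Of 30 listed targets 29 were tested, and with Soshiho-tang at 500 µg/mL 26 were higher than vehicle and none lower, beside 21% of all genes higher, with a median log2 fold change of 0.471 against 0.464 for the 8 regulators. Over 20 µg/mL 28 were higher, beside 13.3% of all genes, with a median of 0.547 against 0.3 for the regulators. AKR1B10 went from 105.2 ± 3.6 to 262.7 ± 2.98 CPM and GCLM, the modifier subunit of the enzyme that starts glutathione synthesis, from 50.55 ± 7.73 to 138.1 ± 1.43 CPM (SD, n = 3). Their log2 fold changes of 1.33 and 1.47 stood above that of every one of the 8 regulators. GCLC, the catalytic subunit of that enzyme, rose by 1.01 and TXNRD1, thioredoxin reductase, by 0.98. With Yijin-tang at 500 µg/mL 14 targets were higher than vehicle (median 0.138, 0.11 for the regulators), beside 12.7% of all genes, and GCLM was higher by 0.725. Over 20 µg/mL 15 were higher (median 0.218, 0.083 for the regulators), beside 0.724% of all genes. With Okbyeongpung-san 16 were higher than vehicle (median 0.335, 0.238 for the regulators), beside 2.19% of all genes, AKR1B10 by 1.01 and AKR1C3 by 1.02. Over 20 µg/mL 12 were higher (median 0.372, 0.201 for the regulators), beside 0.247% of all genes. No listed target was lower in any of these 6 comparisons. AKR1C3 has close paralogs, among which the counting may divide reads imperfectly.

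Transcripts of other proteins that act on NRF2 moved less. Of 10 ligase components and kinases that mark NRF2 for degradation, 6 rose with Soshiho-tang at 500 µg/mL over vehicle and none fell, with a median of 0.119, and 3 rose over 20 µg/mL, where 21% and 13.3% of all genes were higher. CUL3, the scaffold that KEAP1 uses, rose by 0.149 and 0.153 against the 2 references, CUL1, of the other ligase, by 0.276 and 0.237, and SYVN1, a ligase of the endoplasmic reticulum, by 0.136 and 0.26. CAND1, which exchanges adaptors on cullins, rose by 0.329 over vehicle, with 0.098 over 20 µg/mL (edgeR adjusted p = 0.1). With Yijin-tang CAND1 rose over vehicle, and GSK3A (-0.172) and BTRC (-0.207) fell, where 12.7% of all genes were higher and 8.39% lower. Those Yijin-tang counts are near these shares. With Okbyeongpung-san CAND1 alone rose over vehicle (0.27), where 2.19% of all genes were higher. Of the other cap'n'collar and BACH factors, NFE2L1 and NFE2L3 were tested and neither passed, at 0.029 and 0.015 over vehicle with Soshiho-tang at 500 µg/mL. NFE2 and BACH2 did not pass the filter on low counts.

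Transcripts of proteins listed with KEAP1 or p62 showed no common direction. Of 10 genes listed as KEAP1-binding proteins 3 rose and 2 fell with Soshiho-tang at 500 µg/mL over vehicle, with the same numbers over 20 µg/mL. That is near the share over all genes, of which 39.2% changed over vehicle (21% higher, 18.3% lower) and 26.8% over 20 µg/mL, and is no result about the list. SESN1, a sestrin, fell from 25.63 ± 1.47 to 14.55 ± 0.262 CPM (SD, n = 3), by 0.80 on the log2 scale (edgeR adjusted p = 2.9e-10), and TRIM21 fell by 0.316. CDKN1A, the cell-cycle inhibitor p21, rose by 0.354, MCM3 by 0.228 and PALB2 by 0.19. CDKN1A and TRIM21 stand in the list although they are not known mainly as binding KEAP1 itself. With Yijin-tang at 500 µg/mL 2 of the 10 listed genes were higher than vehicle, beside 12.7% of all genes. With Okbyeongpung-san none passed, beside 4.38% of all genes changed. These counts are near those shares and are no result about the list. Of 11 autophagy receptors and partners of p62, 4 rose and 5 fell over vehicle (median -0.12), and 2 rose and 2 fell over 20 µg/mL (median 0.067). Over vehicle these counts are above the share over all genes, of which 39.2% changed (21% higher, 18.3% lower). Over 20 µg/mL they are nearer to it, at 26.8% changed. Not all of the 5 that fell are named here. MAP1LC3B, the LC3 that p62 binds, rose by 0.252 and 0.209 and the kinase TBK1 by 0.264 and 0.156. TFEB, a regulator of autophagy and lysosome genes, fell by 0.294 over vehicle and was 0.123 above the low dose (edgeR adjusted p = 0.25). The lists were chosen with earlier results of these data known.

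**Figure D4:**
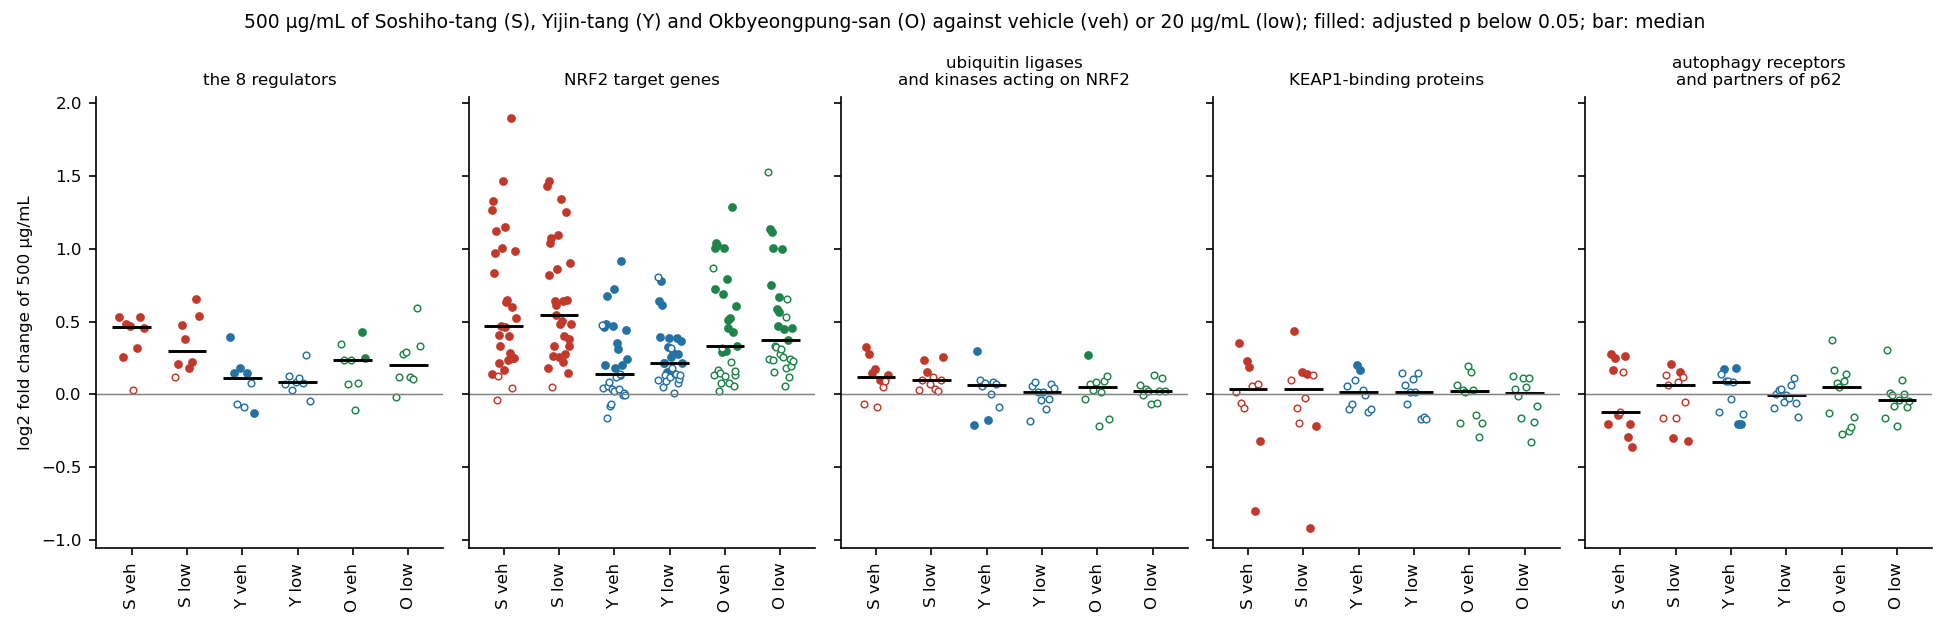
Log2 fold change (vertical axis) of 500 µg/mL of Soshiho-tang (S), Yijin-tang (Y) and Okbyeongpung-san (O) against vehicle (veh) or 20 µg/mL (low) for the 8 regulators and 4 gene lists, with 1 point per gene, filled for an adjusted p below 0.05, and a bar at the median. NRF2 targets reach far above the regulators with Soshiho-tang, while most genes listed as ligases, KEAP1-binding proteins and p62 partners lie closer to 0.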

How the data were processed

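Libraries were sequenced as 100 bp read pairs, per the labels' protocols. The authors deposited expected counts per Ensembl gene, with GRCh38 as build and RSEM 1.3.3, STAR 2.7.3a, FastQC 0.11.9 and Trim Galore 0.6.5 as tools, per the submitters' processing notes. Between 9.52% and 11.52% of the values in a library were not whole, and all were rounded. The authors left out low-RNA outliers, per the design text. The table also holds 30 unnamed columns without values, which were not used. Symbols came from a table of gene names (56558 identifiers matched) and loci from GENCODE 29.

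CPM used TMM library sizes over all 30 libraries (factors 0.942 to 1.02). Tests were quasi-likelihood tests in edgeR 4.0.16 (R 4.3.3, limma 3.58.1) after its expression filter, with Benjamini-Hochberg adjustment over all genes and a threshold of 0.05. Vehicle, Soshiho-tang and Yijin-tang were fitted together (21 libraries, 15882 genes) and vehicle with Okbyeongpung-san (9 libraries, 15762 genes). A fit of 27 libraries (16308 genes) and a batch term were chosen after seeing the data. The model was tested on simulated data. Depth per library, 18.5 M to 36.2 M counts, limits the precision of the least abundant members.

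All 8 members are named. Genes named from a list are among its 4 of smallest adjusted p with Soshiho-tang, or 3 with each other formula, at 500 µg/mL over vehicle, beside a few chosen after their values were seen. The 3 most correlated genes of at least 5 CPM were named for each member. Members and lists were chosen with earlier results of these data known. Alternatives were DESeq2 1.42.0, no filter, removal of mitochondrial genes, a replicate block, fits on the compared groups only and leaving out each library.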

Additional observations from a re-analysis of the deposited data

Results flagged for a closer look

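Some members changed with dose by different amounts under different formulas, by a test of the difference between the changes from 20 to 500 µg/mL. Soshiho-tang minus Yijin-tang gave 0.59 for SQSTM1, 0.446 for MAFF and 0.293 for MAFG on the log2 scale, with edgeR adjusted p of 3.9e-09, 0.008 and 0.025. Okbyeongpung-san minus Yijin-tang gave 0.384 for SQSTM1 (edgeR adjusted p = 0.0012), and Soshiho-tang minus Okbyeongpung-san gave 0.212 for SQSTM1 (edgeR adjusted p = 0.044), both from the fit added after seeing the data. The MAFG difference and the last SQSTM1 difference did not hold when single libraries were left out.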

How the results depend on the processing

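Of 42 member results past the threshold 25 stayed past it in every setting run, 17 did not in some, and 0 reversed. Of 126 not past it 103 stayed so. The 7 members higher with Soshiho-tang at 500 µg/mL than in vehicle passed in all 11 alternatives. The causes of the changes below were not tested. Fits on fewer groups also hold fewer libraries. Counts are members past the threshold, high, medium and low standing for 500, 100 and 20 µg/mL.

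Over vehicle, Soshiho-tang medium gave 1, and 2 in DESeq2. Soshiho-tang low gave 1, and 2 in DESeq2, without the filter and without mitochondrial genes. Yijin-tang high gave 5, but 3 without the filter and 1 on the compared groups alone. Yijin-tang medium and low gave 2 each, and 0 on the compared groups alone. Okbyeongpung-san high gave 2, but 0 with a batch term, 0 on the compared groups alone and 5 in the 27-library fit. Its medium dose gave 0, and 2 in the 27-library fit. Its low dose gave 0, but 1 in DESeq2, 1 without the filter and 2 in the 27-library fit. High against low gave 0 with Yijin-tang, and 1 without the filter or on the compared groups. It gave 0 with Okbyeongpung-san, but 2 in DESeq2, 2 without the filter, and 3 on the compared groups or in the 27-library fit. Okbyeongpung-san against Yijin-tang high gave 1, and 2 without the filter or on the compared groups. The Soshiho-tang minus Okbyeongpung-san dose difference gave 1, and 0 without the filter.

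With single libraries left out, counts over vehicle ran from 1 to 3 for Soshiho-tang medium and low, 2 to 3 for Yijin-tang high, 1 to 4 for Yijin-tang low, 0 to 4 for Okbyeongpung-san high and 0 to 1 for its low dose. They ran from 2 to 4 for Okbyeongpung-san against Soshiho-tang high, and from 0 to 0 for the Soshiho-tang minus Okbyeongpung-san difference. Where an arm was left with 1 library, it was assumed to vary like the other groups.

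The replicate numbers did not pair the libraries. Deviations of same-numbered libraries correlated at -0.064 to 0.094 in the 21-library fit, with 0 of 63 pairs above 0.1, and 9 of 21 libraries correlated best with their own number. With a replicate block, Okbyeongpung-san high against low gave 3 members, MAFG (0.291, edgeR adjusted p = 0.035), SQSTM1 (0.019) and OSGIN1 (0.018). MAFG also passed over vehicle at the high dose (0.322, edgeR adjusted p = 0.009), and the Soshiho-tang minus Okbyeongpung-san difference gave 0.

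Counts of all genes moved by over 1.5 times in many settings. On the compared groups alone, counts over vehicle went from 2886 to 559 for Soshiho-tang medium, 2691 to 362 for low, and 3343 to 1040, 2930 to 574 and 2697 to 498 for Yijin-tang high, medium and low. Yijin-tang high against low went from 295 to 869. Okbyeongpung-san over vehicle went from 690 to 216 (2991 in the 27-library fit), 17 to 3 (1489) and 43 to 18 (2457) at the high, medium and low dose, and high against low from 88 to 938 (348). For the same 4 comparisons no filter gave 1431, 431, 1115 and 225, a batch term 155, 6, 5 and 55, and single libraries left out 55 to 1358, 3 to 318, 0 to 913 and 12 to 21. DESeq2 gave 157 and 545 at the medium and low dose over vehicle, and the replicate block 90, 468 and, for high against low, 156. With single libraries left out, Soshiho-tang low over vehicle ran from 1533 to 3509, Yijin-tang low from 1707 to 3571 and Yijin-tang high against low from 147 to 222. In the 27-library fit, Okbyeongpung-san against Yijin-tang high gave 55 genes, 185 without the filter, 160 on the compared groups and 27 to 35 with a library left out. Against Soshiho-tang high it gave 1132, 1840 and 525 to 975 (compared groups, library left out). The Okbyeongpung-san minus Yijin-tang dose difference gave 9, 15 in DESeq2, 101 without the filter and 4 to 10, and the Soshiho-tang minus Okbyeongpung-san difference 300 and 175 to 273. Medium against low gave 0 for each formula, but 1 for Soshiho-tang and 5 for Yijin-tang on the compared groups, 4 for Yijin-tang without the filter, and for Okbyeongpung-san 4 in DESeq2, 24 without the filter and 0 to 21 with a library left out.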

Other observations

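Targets of the aryl hydrocarbon receptor, a sensor of planar aromatic compounds, rose beside the NRF2 regulators. All 9 listed genes were higher with Soshiho-tang at 500 µg/mL than in vehicle (median log2 fold change 1.481) and than at 20 µg/mL (1.232). Of all genes 21% and 13.3% were higher in these comparisons. CYP1A1, the receptor's best known target, went from 0.602 ± 0.0883 CPM in vehicle to 128.1 ± 4.85 CPM (SD, n = 3). With Yijin-tang at 500 µg/mL 9 were higher than vehicle (median 0.566), beside 12.7% of all genes, and with Okbyeongpung-san 8 (median 0.577), beside 2.19%. NQO1 stands in this list and in that of NRF2 targets.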
